A study of Homo sapiens with 12 samples.

Results

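FOXA1, GATA2, GRHL2, SPDEF, EHF, ETV1, CREB3L4 and ELF3 are transcription factors of the luminal epithelium, the hormone-responsive secretory layer of the prostate. They were taken as the rows of the count table whose Ensembl ID carries one of these 8 symbols, which found all 8 members among 63677 gene IDs, and all 8 were among the 26076 genes with enough reads to be tested. They were followed in LNCaP, a prostate cancer cell line grown from a lymph node metastasis, in which USP22, the deubiquitinase of the SAGA coactivator complex, was either overexpressed or depleted. There were 12 libraries in 4 groups of 3: cells carrying the vector control pLPLUC, cells with USP22 overexpression, cells expressing a control shRNA, and cells expressing 1 shRNA against USP22 (shUSP22-4693). Both shRNA groups were given doxycycline at 1 ug/mL every 48 hours over 5 days, while no doxycycline is given for the vector and overexpression groups, so construct and drug cannot be told apart between the control lines. All cells grew in hormone-proficient medium. The sources used here do not say whether the lines are clones or pools, or whether each replicate was grown as its own culture. The p-values then reflect only the variation among these libraries, and that may be technical.

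The factors act at different steps of luminal identity. FOXA1 is a forkhead pioneer factor and GATA2 a zinc finger factor, and both open or hold enhancers at which the androgen receptor binds. GRHL2 is a grainyhead factor that maintains epithelial junction genes. EHF and ELF3 belong to the epithelium-specific branch of the ETS family, and ETV1 belongs to the PEA3 branch. SPDEF is an ETS factor as well, and members of the family bind sites with a shared GGA core. In LNCaP the ETV1 locus has been inserted next to FOXA1 on another chromosome, which places it among prostate-specific regulatory elements. CREB3L4 is a membrane-bound factor of the CREB3 family that is released by proteolysis and is rich in prostate epithelium.

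Start-site sequences of 7 of the 8 members were found by symbol in the RefSeq table (build GRCh38.p14), as 14 windows of 300 bases each, while GRHL2 is named only. The stretches of EHF and ETV1, the members that rose on depletion, are shown because they held most of the motif matches. ETV1 also has the most windows of all members, and 2 of them overlap and hold the same half-site. The number of matches per member therefore cannot be compared between members. For GATA2 and SPDEF, which fell, 1 stretch each is shown as well, and a link of motifs to direction was not tested. Only bases before the start site that no GENCODE 29 exon covers are printed, on the strand of the gene, with matches in capitals.
EHF, chr11:34632316-34632463, plus strand, inside an EHF intron: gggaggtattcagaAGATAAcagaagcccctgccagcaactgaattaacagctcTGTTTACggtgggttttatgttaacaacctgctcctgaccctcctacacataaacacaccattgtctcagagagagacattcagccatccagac
EHF, chr11:34624007-34624256, plus strand, inside an EHF intron: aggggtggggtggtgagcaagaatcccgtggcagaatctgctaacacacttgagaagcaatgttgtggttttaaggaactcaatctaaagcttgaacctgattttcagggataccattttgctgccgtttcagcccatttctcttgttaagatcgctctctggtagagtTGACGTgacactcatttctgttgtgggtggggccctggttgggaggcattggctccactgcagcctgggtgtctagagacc
ETV1, chr7:13990703-13990952, minus strand, inside an ETV1 intron: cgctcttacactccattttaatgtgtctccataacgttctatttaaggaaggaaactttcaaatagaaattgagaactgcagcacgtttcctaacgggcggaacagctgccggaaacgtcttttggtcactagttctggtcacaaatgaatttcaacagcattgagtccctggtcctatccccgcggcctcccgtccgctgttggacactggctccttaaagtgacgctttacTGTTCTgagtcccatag
ETV1, chr7:13991426-13991675, minus strand, between genes: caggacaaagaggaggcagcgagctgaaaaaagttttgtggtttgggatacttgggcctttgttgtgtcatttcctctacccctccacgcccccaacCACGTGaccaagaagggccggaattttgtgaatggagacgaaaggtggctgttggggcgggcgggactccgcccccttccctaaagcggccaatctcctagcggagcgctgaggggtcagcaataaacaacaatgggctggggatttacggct
GATA2, chr3:128493202-128493451, minus strand, inside an intron of the antisense gene GATA2-AS1: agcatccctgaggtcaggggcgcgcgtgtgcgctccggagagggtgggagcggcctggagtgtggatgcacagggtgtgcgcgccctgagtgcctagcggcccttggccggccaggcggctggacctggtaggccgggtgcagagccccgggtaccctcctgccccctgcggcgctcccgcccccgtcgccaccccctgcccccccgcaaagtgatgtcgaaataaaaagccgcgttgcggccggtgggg
SPDEF, chr6:34556334-34556579, minus strand, inside an SPDEF intron: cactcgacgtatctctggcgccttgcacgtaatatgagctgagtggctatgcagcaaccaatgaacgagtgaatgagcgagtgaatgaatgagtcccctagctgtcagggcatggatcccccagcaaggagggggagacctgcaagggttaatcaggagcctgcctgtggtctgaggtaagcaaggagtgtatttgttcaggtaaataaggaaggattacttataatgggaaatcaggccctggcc

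The capitals mark exact matches, on either strand, to 9 short motifs. The forkhead motif TGTTTAC and the GATA motif AGATAA both stood in the first EHF stretch, beginning 196 and 236 bases before the start site, and among all 35116 windows in the RefSeq table, 3.42% held the former and 10.3% the latter. The second EHF stretch held the CRE motif TGACGT, which 7.98% of windows held. In ETV1 the first stretch held TGTTCT, the reverse complement of the androgen receptor half-site AGAACA (14.8% of windows), and the second the E-box CACGTG (7.26%). ELF3, whose window lies within annotated exons, held TATAAA 34 bases before its start site (11.5%). The ETS motifs CGGAAG and ACCGGAAG, of which the longer contains the shorter, and the grainyhead motif AACCGG were in none of the 14 windows, and 19.5%, 2.17% and 7.23% of all windows held them. These are matches of letters in short windows and say nothing of binding.

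Libraries held 77607469 to 103690001 counted reads. USP22 followed the labels, with 512.5 ± 45.9 CPM (read counts scaled to library size with TMM factors; SD, n = 3 in every group) in the vector control, 1466 ± 52.2 CPM after overexpression, 477.6 ± 3.65 CPM in the shRNA control and 257.6 ± 7.38 CPM after depletion. The cells carried the luminal label: all 8 luminal markers (KRT8, KRT18, KLK2, KLK3, TMPRSS2, SLC45A3, ACP3 and FOLH1) had a mean of at least 1 CPM. Of the basal markers, TP63 and KRT5 did not exceed 0.02437 CPM in any library. The 7 listed genes summed to 2.535 to 3.496 CPM over the vector libraries and 9.595 to 10.69 CPM over the shRNA control libraries, where KRT14 (0.6068 and 3.53 CPM) and ITGB4 (1.612 and 5.681 CPM) carried the higher sum. The 5 immune markers summed to at most 0.5215 CPM. The 8 neuroendocrine markers were not absent, with sums of 576.4 to 699 CPM over the vector libraries and 163.5 to 192.1 CPM over the shRNA control libraries. Vector control replicate 3 departed from its 2 group mates in every member, being the highest of the group for GATA2, GRHL2, SPDEF, CREB3L4 and ELF3 and the lowest for FOXA1, EHF and ETV1. Its mitochondrial reads were 0.691% of the total, against 1.04% to 1.53% in the other 11 libraries, and the overexpression value of each member is therefore also given without it.

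Set per kilobase of exon (union exon length from GENCODE 29), the members spanned a wide range of levels. In the vector control EHF stood at 102.8 ± 8.09 and FOXA1 at 94.87 ± 7.24 CPM per kilobase, above SPDEF (63.42 ± 10.7), CREB3L4 (47.55 ± 6.08), GATA2 (46.01 ± 5.89), GRHL2 (42.84 ± 2.73) and ETV1 (21.61 ± 2.8). ELF3 was far lower at 4.277 ± 0.558 CPM per kilobase, at the 66.8th percentile of tested genes, while the other 7 lay above the 91st. The ranges of EHF and FOXA1 overlapped, as did those of CREB3L4, GATA2 and GRHL2, while SPDEF, ETV1 and ELF3 each stood apart from their neighbours. In the shRNA control the order at the top turned, with FOXA1 at 91.65 ± 3.45 and EHF at 66.82 ± 0.817 CPM per kilobase. Those ranges did not overlap, and EHF there overlapped SPDEF (66.48 ± 1.67). In depleted cells GATA2 (33.76 ± 0.643) lay below ETV1 (35.5 ± 1.74) on the same scale, the reverse of the order of their means in the other 3 groups, with overlapping ranges. The length is that of the current annotation, not the one used for counting, so levels between genes are approximate. Few exon bases of the members are shared with other genes: none for GATA2, SPDEF, EHF and ETV1, 0.402% for FOXA1 (with TTC6), 0.825% for GRHL2, 9.64% for CREB3L4 with SLC39A1 and 3.27% with JTB, and 9.23% for ELF3 with ELF3-AS1 and with AL691482.3. The strand setting of the counting is not stated, so those reads cannot be assigned.

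**Figure D1:**
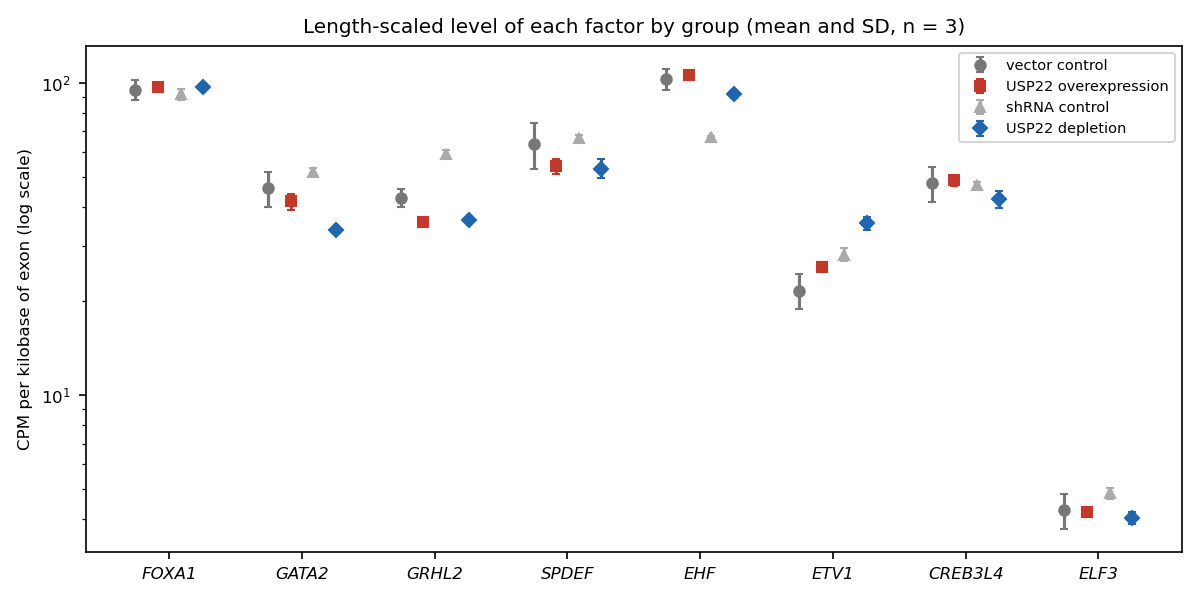
Mean level of each factor in each group, in CPM per kilobase of exon on a log axis, with the SD over 3 libraries as bars. EHF and FOXA1 lie at the top and ELF3 lies far below the other 7; EHF is lowest in the shRNA control and GATA2 lowest after depletion.

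Lowering USP22 was compared with the shRNA control, to ask which factors moved with its loss. EHF and ETV1 rose, and GATA2, GRHL2, SPDEF and ELF3 fell, while FOXA1 and CREB3L4 did not pass the test. That is 6 of 8 members, 2 higher and 4 lower, where 19.8% of all tested genes were called (9.4% higher and 10.4% lower; edgeR quasi-likelihood test, Benjamini-Hochberg adjusted p under 0.05). The tested genes include many of lower level than the members, in which a change is harder to call. Among genes with at least 1 CPM in at least 3 libraries, 5200 of 15897 were called, beside 6 members. Depleted and control replicates did not overlap for any of the 8, which held for 41.8% of all tested genes, and 3 against 3 values cannot give an exact two-sided permutation p below 0.1. The median log2 fold change of the members was -0.21, against 0.00 over all tested genes. All changes were below 2-fold. In a bulk sample, fewer cells expressing a gene and less RNA per cell cannot be told apart.

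**Figure D2:**
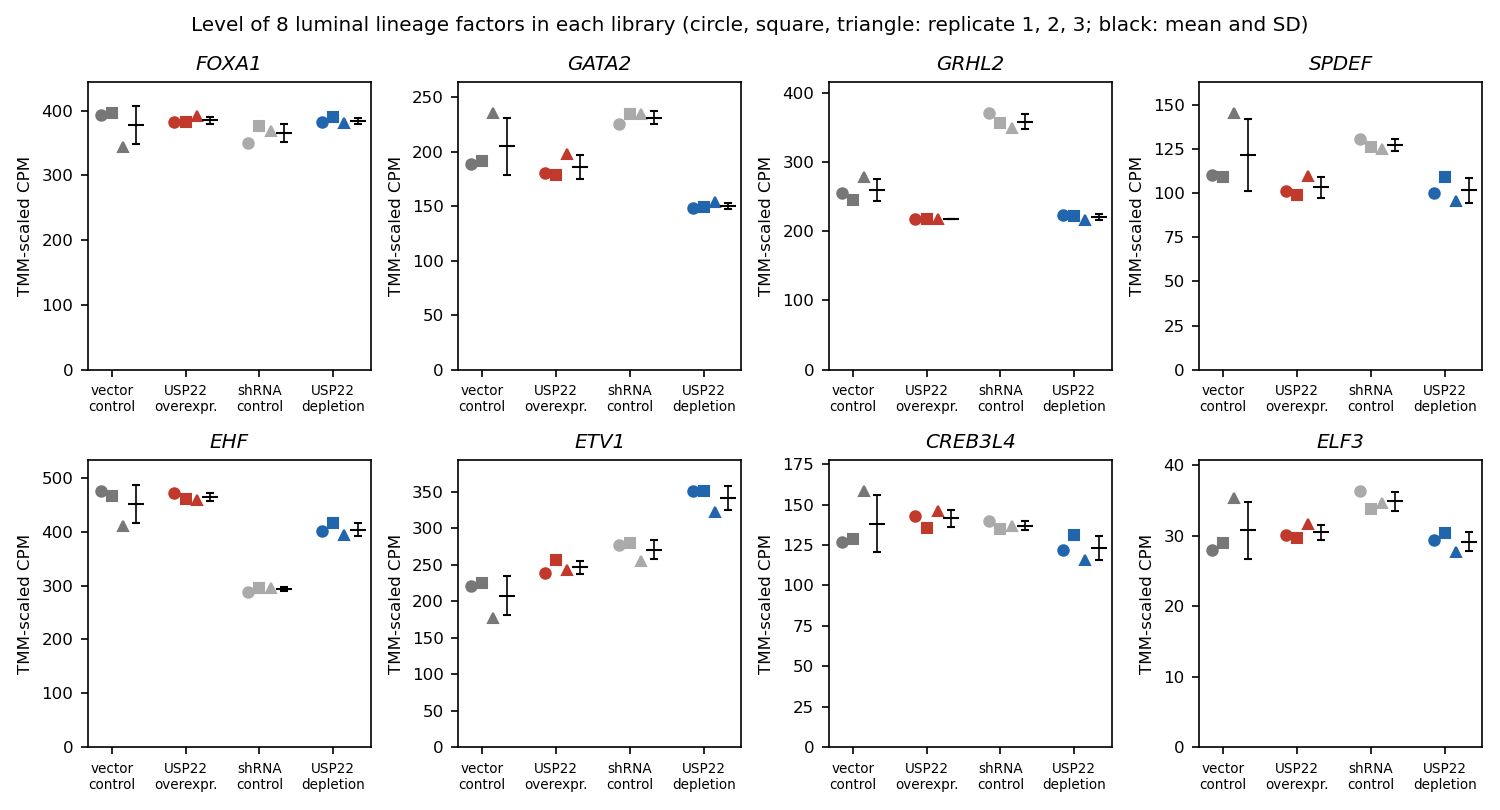
TMM-scaled CPM of each factor in each of the 12 libraries, on axes that start at 0, with the group mean and SD in black. GATA2 and GRHL2 fall and EHF and ETV1 rise from the shRNA control to depletion with no overlap, and vector control replicate 3 lies at the edge of its group in all 8 panels.

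FOXA1, the pioneer factor, passed the test in neither comparison. It stood at 349.7, 376.1 and 369.1 CPM in the shRNA control and 382.6, 390.0 and 380.8 CPM after depletion. The depleted libraries were all higher, by a small step that did not pass (log2 fold change 0.08, SE 0.06, edgeR adjusted p = 0.434). In the vector control it had 392.8, 396 and 344.5 CPM, and after overexpression 382, 382.2 and 391.2 CPM. These ranges overlapped (log2 fold change 0.03, SE 0.06, edgeR adjusted p = 0.849), and all 4 group means fell between 365 and 385.1 CPM, each group overlapping its neighbour in the order. Without vector control replicate 3 the overexpression value was -0.04.

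GATA2, which shares enhancers with the androgen receptor, had 225.1, 234.4 and 235 CPM in the shRNA control and 148.5, 149.3 and 153.8 CPM after depletion. All 3 depleted libraries lay well below, at 0.650 of the shRNA control (log2 fold change -0.62, SE 0.08, edgeR adjusted p = 2.42e-05). They also lay below the vector control, at 188.5, 191.5 and 235.4 CPM, and below the overexpressing cells, at 180.3, 178.6 and 198.4 CPM. Depletion was thus the lowest of the 4 groups with no overlap, while the other 3 overlapped their neighbours. On overexpression the difference did not pass (log2 fold change -0.14, SE 0.08, edgeR adjusted p = 0.332), and without vector control replicate 3, the library with 235.4 CPM, it was -0.03.

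GRHL2, the keeper of epithelial junctions, showed the largest fall of the 8 on depletion. It went from 370.3, 355.7 and 348.5 CPM to 223.7, 222.1 and 215.7 CPM. The groups were far apart, with the depleted cells at 0.616 of control (log2 fold change -0.70, SE 0.06, edgeR adjusted p = 2.67e-07). It was also the 1 member called on overexpression, with 255.8, 245.3 and 277.8 CPM in the vector control against 217.8, 217 and 218.1 CPM. All 3 overexpressing libraries were lower (log2 fold change -0.25, SE 0.06, edgeR adjusted p = 0.015), so that GRHL2 fell in both comparisons. Without vector control replicate 3 the overexpression value was -0.20 (edgeR adjusted p = 0.00384). The call was lost without overexpression replicate 1, 2 or 3 (edgeR adjusted p = 0.0717, 0.0778 and 0.0611) and with only the 6 libraries compared (0.135).

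The shRNA control is the group in which GRHL2 stood highest, 0.46 log2 units above the vector control (SE 0.06, edgeR adjusted p = 4.51e-06). Depletion therefore brought it from above the vector control to below it, and its 3 depleted libraries overlapped the overexpressing ones. The order was shRNA control, vector control, depletion and overexpression, with overlap only between the last pair.

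SPDEF, an ETS factor of secretory cells, had 130.8, 126.2 and 124.7 CPM in the shRNA control and 100.2, 109.2 and 95.3 CPM after depletion. It fell to 0.798 of control (log2 fold change -0.33, SE 0.09, edgeR adjusted p = 0.0206), a call that was lost without shRNA control replicate 1 or 2 or depletion replicate 1 or 3 (edgeR adjusted p = 0.0917, 0.0641, 0.0831 and 0.103). The depleted range overlapped that of the vector control, at 110.1, 109 and 145.1 CPM. In overexpressing cells SPDEF had 101, 98.87 and 109.8 CPM, a difference that did not pass (log2 fold change -0.23, SE 0.09, edgeR adjusted p = 0.189) and that was -0.09 without the vector library at 145.1 CPM. Every neighbouring pair in its order (shRNA control, vector control, overexpression, depletion) overlapped.

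ELF3, the least abundant member, fell as well. It had 36.37, 33.72 and 34.58 CPM in the shRNA control and 29.38, 30.36 and 27.68 CPM after depletion. The fall to 0.835 of control (log2 fold change -0.26, SE 0.08, edgeR adjusted p = 0.0332) did not survive the loss of any 1 of the 6 libraries compared, with edgeR adjusted p from 0.059 (without depletion replicate 2) to 0.161 (without shRNA control replicate 1). Vector control libraries, at 28.01, 28.9 and 35.36 CPM, overlapped each of the other 3 groups, and overexpressing libraries had 30.04, 29.68 and 31.68 CPM (log2 fold change -0.01, SE 0.08, edgeR adjusted p = 0.957; 0.10 without vector control replicate 3). Each neighbouring pair in its order overlapped.

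EHF, the most abundant ETS factor here, went the opposite way to SPDEF and ELF3. It had 289, 294.8 and 295.5 CPM in the shRNA control and 402, 416.5 and 393 CPM after depletion. This 1.378-fold rise (log2 fold change 0.46, SE 0.06, edgeR adjusted p = 3.43e-05) began from a control line in which EHF was lower than in the vector control (-0.62 log2 units, SE 0.06, edgeR adjusted p = 3.31e-07). In the vector control it had 476, 466.7 and 410.5 CPM and after overexpression 472, 461.2 and 458.6 CPM. The depleted level thus exceeded the shRNA control. It overlapped the vector control only through vector replicate 3, at 410.5 CPM, and lay below vector replicates 1 and 2. The overexpression difference was small (log2 fold change 0.04, SE 0.06, edgeR adjusted p = 0.763, and -0.02 without vector control replicate 3).

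ETV1, the PEA3 factor relocated next to FOXA1 in this line, had 277.2, 279.5 and 255.4 CPM in the shRNA control and 350.7, 351.3 and 322 CPM after depletion. It rose 1.261-fold (log2 fold change 0.33, SE 0.08, edgeR adjusted p = 0.00691) to a level above all libraries of the other 3 groups. In the vector control it had 220.9, 225.6 and 176.9 CPM and after overexpression 239.3, 256.7 and 243.4 CPM. All 3 overexpressing libraries were higher, yet the difference did not pass (log2 fold change 0.25, SE 0.08, edgeR adjusted p = 0.103). It was 0.14 (edgeR adjusted p = 0.114) without vector control replicate 3 and 0.31 (edgeR adjusted p = 0.0499) without vector control replicate 2. The order was depletion, shRNA control, overexpression and vector control, and only the middle pair overlapped.

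CREB3L4, the membrane-bound CREB3 factor, had 139.9, 134.6 and 136.6 CPM in the shRNA control and 122.2, 130.9 and 115.8 CPM after depletion. The depleted libraries were lower without passing (log2 fold change -0.16, SE 0.08, edgeR adjusted p = 0.189). With only the 6 libraries compared the call was made (edgeR adjusted p = 0.0126), and also without vector control replicate 3 (0.0104), a library in neither of the groups compared. In the vector control it had 127.1, 128.7 and 158.5 CPM and after overexpression 142.9, 135.4 and 145.9 CPM. Those groups overlapped (log2 fold change 0.03, SE 0.08, edgeR adjusted p = 0.863), and the value was 0.14 (edgeR adjusted p = 0.102) without the vector library at 158.5 CPM.

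On overexpression, then, 1 of 8 members fell, none rose by edgeR, DESeq2 or limma voom (1, ETV1, had an unadjusted p under 0.05) and 7 did not pass, with 4.11% of all tested genes called (1.51% higher and 2.6% lower). Replicates did not overlap for 2 members, GRHL2 and ETV1, against 22.4% of all tested genes. Median log2 fold change was 0.01 over the members and -0.01 over all tested genes. Whether a member changed differently in the 2 comparisons was tested as the overexpression change minus the depletion change. Each change is set against its own control line, so this contrast also holds the gap between those lines. It was called for 10.9% of all tested genes (4.91% above 0 and 5.98% below). It passed for 3 members: GATA2 (log2 fold change 0.48, SE 0.11, edgeR adjusted p = 0.00874), GRHL2 (log2 fold change 0.45, SE 0.08, edgeR adjusted p = 0.00158) and EHF (log2 fold change -0.42, SE 0.08, edgeR adjusted p = 0.0036). For SPDEF it was 0.09 (SE 0.13) and for ETV1 -0.09 (SE 0.11), which did not pass (edgeR adjusted p = 0.731 and 0.694), so for these members, with values below 0 (SPDEF) or above 0 (ETV1) in both comparisons, no difference in response was shown. Without vector control replicate 3 the contrast passed for 7 members, all except FOXA1.

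**Figure D3:**
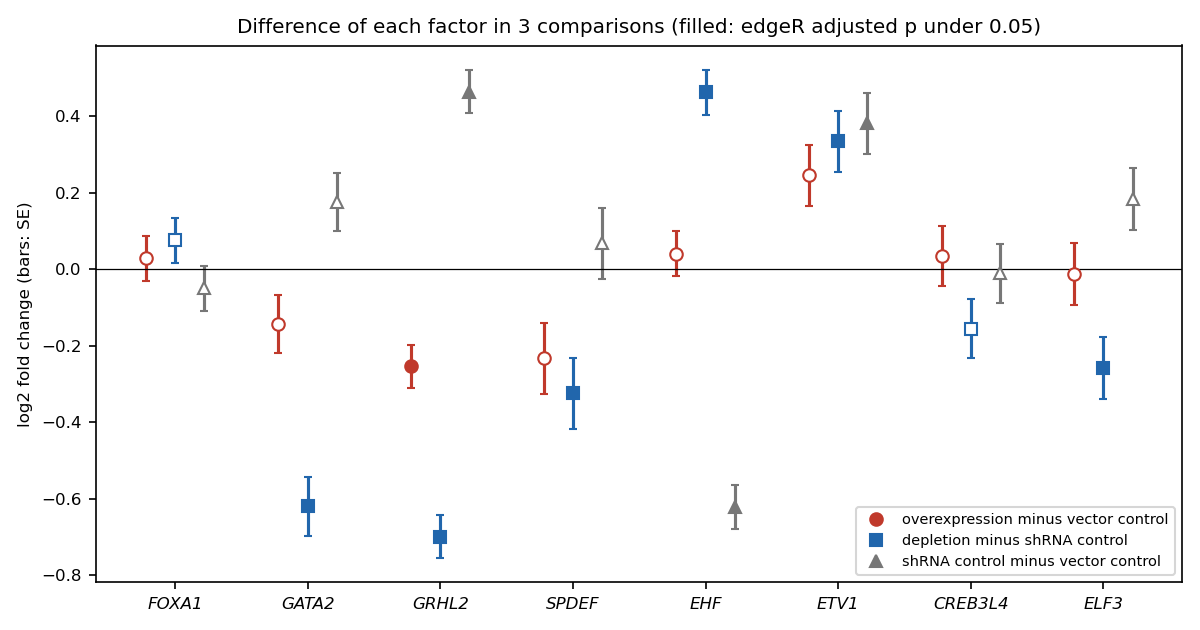
Log2 fold change of each factor, with SE bars, on overexpression (circles), on depletion (squares) and between the shRNA and vector controls (triangles); filled symbols passed the test. GRHL2 is the 1 filled circle, and for GRHL2 and EHF the square and the triangle lie on opposite sides of 0.

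**Figure D4:**
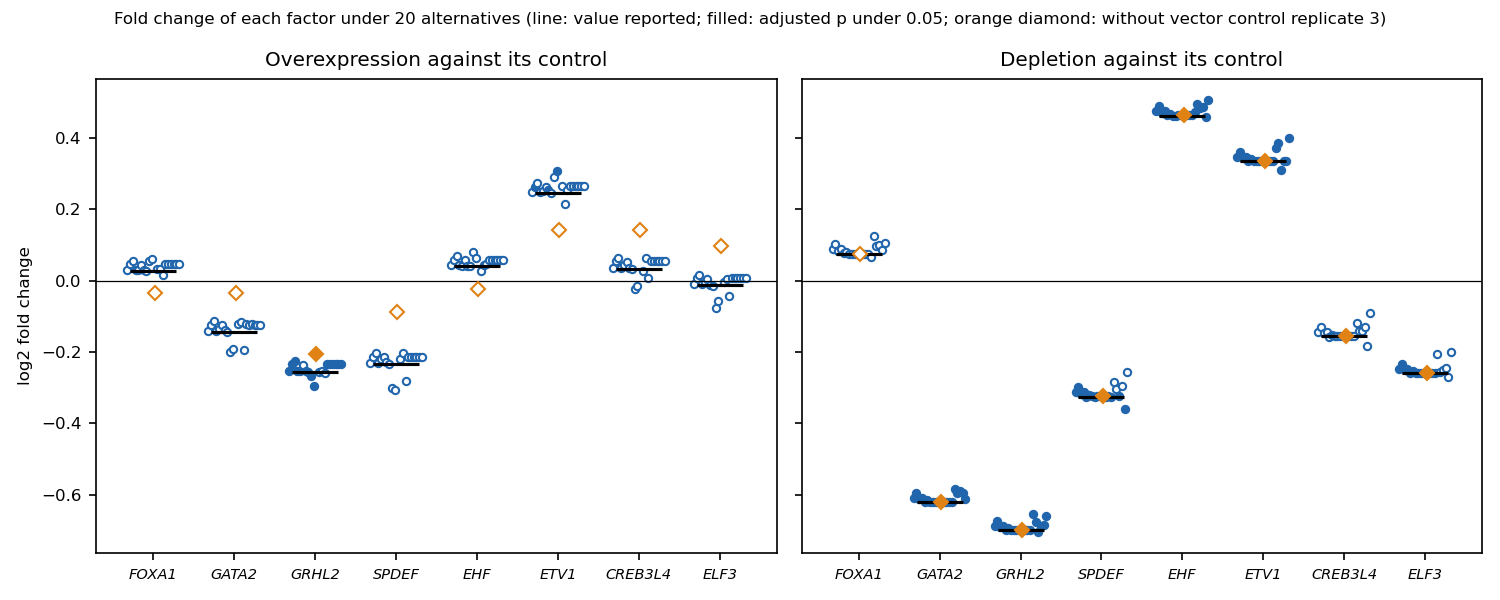
Log2 fold change of each factor under 20 alternative settings, with the reported value as a line and filled symbols for adjusted p under 0.05; the orange diamond leaves out vector control replicate 3. On depletion GATA2, GRHL2, EHF and ETV1 have filled symbols throughout, and on overexpression the diamond lies nearest to 0 for GATA2, GRHL2, SPDEF and ETV1.

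The control lines themselves differed in 3 members. GRHL2 and ETV1 were higher and EHF was lower in the shRNA control than in the vector control, where 43.0% of all tested genes were called (21.7% higher and 21.3% lower). The ETV1 difference was 0.38 (SE 0.08, edgeR adjusted p = 0.001), beside 0.33 on depletion. GATA2 and ELF3 had 0.17 and 0.18 (edgeR adjusted p = 0.0755 and 0.0825) respectively. Without vector control replicate 3 they passed, at 0.28 and 0.29 (edgeR adjusted p = 3.71e-05 and 0.000124), as did SPDEF at 0.21 and FOXA1 at -0.11 (0.00263 and 0.0333), for 7 of 8. Replicates did not overlap for 3 members, against 49.8% of tested genes. Set against the vector control, depleted libraries lay wholly below it for GATA2 and GRHL2, wholly above it for ETV1, and overlapped it for the other 5, while 42.9% of all tested genes did not overlap. The 2 perturbations share no control libraries, but the contrast between controls shares libraries with both.

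Genes whose pattern over the 12 libraries lay closest to a member were found among 10980 genes by the root mean square distance of centred log2 values. Around GATA2 these were ZNF671 (distance 0.047) and TEAD3, a factor of the Hippo pathway (0.063), where GATA2 itself varied by 0.24 around its mean. GRHL2 was followed most closely by NFKBIA, the inhibitor of NF-kappaB (0.069), and the scaffold gene HOMER2 (0.069). HOMER2 fell on overexpression and on depletion too, with log2 fold changes of -0.39 and -0.64 (edgeR adjusted p = 0.000967 and 1.39e-06). For EHF they were the centriole gene STIL (0.038) and the antisense RNA HERPUD2-AS1 (0.039), whose reads cannot be told from its partner's without strand. For SPDEF they were the spindle protein gene NUMA1 (0.033) and the clathrin adaptor gene AP1B1 (0.041). ETV1 had the least close neighbours, DSE, an epimerase of dermatan sulfate (0.07), and FAM172A (0.082). ELF3 lay nearest to the pseudogene NSUN5P1, whose reads may belong to its parent gene (0.04), and the cullin gene CUL9 (0.044). Likeness of pattern is a description of these libraries.

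Relatives of the members were read from lists of their families, beside 19.8% of all tested genes called on depletion and 4.11% on overexpression, the background for this and the following lists. Of 22 other ETS genes 20 were tested, and on depletion 5 fell and none rose by edgeR, DESeq2 or limma voom (2 were higher at an unadjusted p under 0.05 by edgeR; median -0.02). These included ELF2, at -0.59 (edgeR adjusted p = 2.2e-06) on the log2 scale, ELF1 at -0.33 (edgeR adjusted p = 0.00184) and ELF4 at -0.33 (edgeR adjusted p = 0.0168), which form an ETS branch apart from that of ELF3, and FEV, which was barely expressed (0.1879 ± 0.0717 CPM in the shRNA control, 0.0337 ± 0.0229 after depletion). The ELF4 call was lost without shRNA control replicate 1 or 3 (edgeR adjusted p = 0.103 and 0.0566) or any depletion replicate (0.0664, 0.06 and 0.0562). ELF4 was higher in the shRNA control than in the vector control, at 1.15 (edgeR adjusted p = 6.03e-08). Its depleted libraries lay wholly above the vector control, while those of ELF1, ELF2 and FEV lay below it. ELF5, of the epithelium-specific branch, was at -0.63 on depletion (edgeR adjusted p = 0.114). On overexpression the repressor gene ERF was the 1 ETS gene called by edgeR, where DESeq2 called 2 higher and 2 lower, at -0.45 (edgeR adjusted p = 0.0229). That call was lost without overexpression replicate 1 or 2 (edgeR adjusted p = 0.127 and 0.13) and with only the libraries compared (0.187), and the value was -0.32 without vector control replicate 3. Other members of the PEA3 branch were low: ETV4 and ETV5 had 0.4188 and 1.477 CPM in the shRNA control, against 270.7 CPM for ETV1, without length scaling. ETV5 was the fifth ETS gene that fell on depletion, at -0.68 (edgeR adjusted p = 0.034), a call lost without any 1 of the 6 libraries compared (edgeR adjusted p from 0.0645 without depletion replicate 2 to 0.145 without depletion replicate 3). ETV5 was higher in the shRNA control than in the vector control, at 1.41 (edgeR adjusted p = 0.000105), and its depleted libraries overlapped the vector control. Among 17 paralogs of FOXA1, GATA2, GRHL2 and CREB3L4 only 9 were tested, since FOXA2 had no reads and FOXA3, GATA3, GATA4, GATA5, CREB3L1, CREB3L3 and TFCP2 had hardly any. Of these 9, GATA6 fell on depletion at -0.40 (edgeR adjusted p = 0.01), and none was called on overexpression by edgeR, where 3 had an unadjusted p under 0.05 and DESeq2 called 1. The GATA6 call was lost without shRNA control replicate 1 or 2 or depletion replicate 1 or 2 (edgeR adjusted p = 0.0655, 0.0519, 0.0847 and 0.0512). GATA6 was higher in the shRNA control than in the vector control, at 0.54 (edgeR adjusted p = 0.000414), and its depleted libraries overlapped the vector control. GRHL1 was at 0.17 on depletion (edgeR adjusted p = 0.0955).

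Coregulators of the androgen receptor changed in both directions on depletion: of 25 tested, 4 rose and 6 fell (median -0.07). The falls included NCOA3, a steroid receptor coactivator, at -0.46 (edgeR adjusted p = 2.71e-05), the corepressor NCOR1 at -0.32 (edgeR adjusted p = 0.00023), the histone demethylase KDM3A at -0.31 (edgeR adjusted p = 0.000957) and the acetyltransferase CREBBP at -0.35 (edgeR adjusted p = 0.00195). NCOA3, NCOR1 and CREBBP were higher in the shRNA control than in the vector control, at 0.60, 0.29 and 0.71 (edgeR adjusted p = 3.39e-07, 0.000151 and 6.56e-07). Depleted libraries lay wholly above the vector control for NCOA3 and CREBBP, overlapped it for NCOR1 and lay below it for KDM3A. On overexpression 2 of 25 rose, the chaperone HSP90AA1 at 0.34 (edgeR adjusted p = 0.00241) and CREBBP at 0.30 (edgeR adjusted p = 0.0227). HSP90AA1 rose on depletion as well, at 0.23 (edgeR adjusted p = 0.0103). The CREBBP call on overexpression was lost without overexpression replicate 1 or 3 (edgeR adjusted p = 0.107 and 0.115) and with only the libraries compared (0.0833). NCOA4 was listed at 0 in every library and not tested.

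Epithelial genes of the kind bound by GRHL2 and the epithelium-specific ETS factors changed in both directions on depletion. Of 26 tested, 4 rose and 8 fell on depletion (median -0.12), and 3 fell on overexpression (median -0.09), where none rose by edgeR, DESeq2 or limma voom and 1 had an unadjusted p under 0.05. KRT19, a simple epithelial keratin, fell by 1.26 on the log2 scale on depletion (edgeR adjusted p = 8.58e-07). Its shRNA control, at 12.53 CPM, stood above the vector control, at 4.385 CPM (log2 fold change 1.52, edgeR adjusted p = 2.74e-08). Depleted libraries, with a mean of 5.227 CPM, overlapped the vector control. OVOL1, a repressor of mesenchymal genes, fell in both, at -1.41 (edgeR adjusted p = 1.63e-05) on depletion and -0.71 (edgeR adjusted p = 0.0131) on overexpression. The second call was lost without overexpression replicate 1 or 2 (edgeR adjusted p = 0.0526 and 0.0867) and with only the libraries compared (0.109), and the value was -0.50 without vector control replicate 3. Its relative OVOL2 rose on depletion, at 0.31 (edgeR adjusted p = 0.00772), as did the adhesion molecule EPCAM, at 0.30 (edgeR adjusted p = 0.00706). OVOL2 and EPCAM were lower in the shRNA control than in the vector control, at -0.32 and -0.73 (edgeR adjusted p = 0.00279 and 5.52e-07). The claudin gene CLDN3 fell on overexpression, at -0.69 (edgeR adjusted p = 0.000708). On depletion CLDN3 was at -0.29 without passing (edgeR adjusted p = 0.055), and it was called lower there in 7 of 20 alternatives.

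Among genes of luminal secretory cells more fell than rose. Of 21 tested, 11 fell and 1 rose on depletion by edgeR (median -0.34), where DESeq2 and limma voom each called 2 higher. On overexpression 7 fell and none rose (median -0.19), and edgeR, DESeq2 and limma voom put 0 higher even at an unadjusted p under 0.05. Named falls on depletion were KLK3, which encodes prostate-specific antigen, at -2.13 (edgeR adjusted p = 1.54e-10), AGR2, a disulfide isomerase, at -2.32 (edgeR adjusted p = 6.78e-10), the cation channel gene TRPM8 at -1.77 (edgeR adjusted p = 6.78e-10) and NDRG1 at -0.85 (edgeR adjusted p = 1.03e-06). TRPM8 and AGR2 fell on overexpression as well, at -1.38 (edgeR adjusted p = 2.68e-08) and -1.05 (edgeR adjusted p = 1.79e-05). So did KLK3, at -0.51 (edgeR adjusted p = 0.00128), and NDRG1, which was called lower on overexpression in all 20 alternatives (-0.71 to -0.55). Summed over the 8 luminal markers, the shRNA control had 4545 to 4780.0 CPM and depleted cells 2978 to 3451 CPM. The shRNA control was the highest group, and the depleted range overlapped that of the vector control, at 3332 to 3811 CPM. Overexpressing cells had 2993 to 3102 CPM. KLK3 alone went from 1428 CPM in the shRNA control to 326.3 CPM in depleted cells. FOLH1, which encodes prostate-specific membrane antigen, was the 1 secretory gene called higher by edgeR. It had 1173 CPM in the shRNA control and 1413 CPM in depleted cells (edgeR adjusted p = 0.00248). The 8 neuroendocrine markers summed to 163.5 to 192.1 CPM in the shRNA control and 41.39 to 46.76 CPM in depleted cells, nearly all from SYT4 and DDC. Their sum was higher in the vector control, at 576.4 to 699 CPM, and was 331.2 to 362.4 CPM after overexpression. The 12 mesenchymal markers had 34.2 to 36.73 CPM in the shRNA control and 31.85 to 34.42 CPM in depleted cells, with CDH2 at 0. The part of these shifts in the changes of the 8 factors was not tested.

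Genes next to FOXA1 or ETV1 were read as a local check. Of 9 listed, 8 were tested, and MEOX2 had no reads. On depletion SCIN, an actin-severing protein gene near ETV1, fell at -0.70 (edgeR adjusted p = 0.00269) and the other 7 were not called, while none of the 8 was called on overexpression by edgeR, DESeq2 or limma voom (1 had an unadjusted p under 0.05 by edgeR). With no filter on low counts edgeR called DGKB on overexpression, at 0.45 (edgeR adjusted p = 5.73e-05). On the side of FOXA1, depletion gave -0.06 (edgeR adjusted p = 0.74) for MIPOL1, -0.05 (edgeR adjusted p = 0.734) for TTC6, -0.19 (edgeR adjusted p = 0.251) for SLC25A21, -0.47 (edgeR adjusted p = 0.566) for SSTR1 and 0.22 (edgeR adjusted p = 0.0828) for PAX9. On the side of ETV1, it gave 0.04 (edgeR adjusted p = 0.925) for DGKB, a diacylglycerol kinase.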

How the data were processed

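RNA of 12 LNCaP libraries was sequenced from stranded total RNA preparations, per the labels' protocols. The authors deposited raw read counts for 63677 Ensembl IDs, and the submitters' processing notes name hg19, DESeq2 1.14.1, featureCounts 1.5.0-p3 and STAR 2.5.2a. The sources used here do not give the annotation release, the strand setting or how multimapping reads were counted. Counts of 26076 genes passing filterByExpr were scaled by TMM and fitted over all 4 groups (8 residual degrees of freedom) with the edgeR 4.0.16 quasi-likelihood test in R 4.3.3, with Benjamini-Hochberg adjustment across every tested gene and a threshold of 0.05. The fit was tested on simulated data. Each SE is the absolute fold change over the root of its F value. Depth sets the counting error, which is small at these counts.

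Members, lists and tests were chosen with earlier results of these data known. Besides the 8 members and USP22, the text names, per list, up to 4 genes called on depletion and 2 on overexpression with the smallest p, genes next to FOXA1 or ETV1, and per changed member the 2 genes of at least 5 CPM with the nearest pattern (log2 of CPM plus 0.5). KRT5, GRHL1, ETV5, FOLH1 and other genes named for their level or family were chosen after their values were seen. Lists are described by counts and medians, with no set test, and some listed genes are not reported here. Alternatives were DESeq2 1.42.0, limma 3.58.1 voom, RLE scaling, no filter, a strict filter (3 or more libraries at 1 CPM or above), a replicate block, fitting only the compared libraries, omitting each replicate in turn and omitting the 20 genes with most reads. No 2 replicates of a group were alike within counting noise.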

Additional observations from a re-analysis of the deposited data

Results flagged for a closer look

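For 3 members the change on overexpression and the change on depletion, each against its own control line, differed by the test of the difference itself. That test also holds the gap between the control lines, which was 0.46 for GRHL2, -0.62 for EHF and 0.17 for GATA2. GRHL2 overlapped between overexpressing and depleted cells (means 217.6 and 220.5 CPM). The part of construct or doxycycline in these values cannot be told apart from that of USP22. GATA2 differed by 0.48 on the log2 scale, from -0.14 on overexpression and -0.62 on depletion (edgeR adjusted p = 0.00874). GRHL2 differed by 0.45, with -0.25 and -0.70 (edgeR adjusted p = 0.00158), so both values were below 0. EHF differed by -0.42, with 0.04 and 0.46 (edgeR adjusted p = 0.0036). These 3 passed in each of the 19 alternatives that gave a value.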

How the results depend on the processing

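No member changed sign in an alternative within a comparison in which it was called. On depletion EHF, ETV1, GATA2 and GRHL2 were called in all 20 alternatives, SPDEF in 16 and ELF3 in 14. The number of members called on overexpression was 1; it was 2 with no filter and with a replicate block (ETV1 added), 0 with only the 6 libraries compared, and 0 to 2 on leaving out a replicate. On depletion it was 6, and 4 to 7 on leaving out a replicate. For the difference of the responses it was 3, and 3 to 7 on leaving out a replicate, the 7 being without vector control replicate 3. Between controls it was 3, and 5 with no filter and with the strict filter, and 3 to 7 on leaving out a replicate.

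Over all genes 1072 were called on overexpression, 2062 with no filter, 1781 by DESeq2, 327 with only the libraries compared, and 501 to 1842 on leaving out a replicate (539, 501 and 630 without overexpression replicate 1, 2 and 3). Depletion gave 5172, 8115 with only the libraries compared, and 3523 to 8359 on leaving out a replicate. The difference gave 2840, and 1909 to 5320, and the controls 11211, and 9514 to 12344. The highest value of each range was without vector control replicate 3. Lower calls on depletion (2722, against 2450 higher) became fewer than higher ones with RLE scaling (2606 higher, 2571 lower), no filter (3106, 2603), the strict filter (2689, 2511) and DESeq2 (2901, 2801), and without shRNA control replicate 1 (1812, 1711) or 2 (2218, 1852) or depletion replicate 1 (1912, 1741) or 3 (2463, 1940). The cause of these shifts was not tested.

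The replicate block gave 1098 calls on overexpression and 5272 on depletion, and of members added ETV1 on overexpression (edgeR adjusted p = 0.0389) and GATA2 between controls (0.0307). Same-numbered libraries of different groups had correlations from -0.0945 to 0.22 (median 0.00393, against -0.0157 for other numbers), of which 5 of 18 exceeded 0.1. Of the 12 libraries, 8 correlated best with one of their own number. The labels do not say that numbers pair samples, so the main fit has no block. Whether same-numbered libraries shared a preparation was not tested. The difference of the responses needs all 4 groups, so it has no value with only the libraries compared.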

Other observations

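TWIST1, a mesenchymal transcription factor named here after its values were seen, rose in both comparisons. It went from 4.223 ± 0.6 to 6.44 ± 0.297 CPM on overexpression (log2 fold change 0.61, edgeR adjusted p = 0.00498) and from 7.503 ± 0.911 to 9.378 ± 0.419 CPM on depletion (0.32, edgeR adjusted p = 0.0442; SD, n = 3 each). The first call was lost when the fit held just the 6 libraries of that comparison (edgeR adjusted p = 0.0512). The second was lost without any 1 overexpression replicate (0.0608, 0.0604 and 0.0567), without shRNA control replicate 1 or 2 (0.172 and 0.0604) and without depletion replicate 1 or 2 (0.119 and 0.0821; edgeR adjusted p). Of the 8 mesenchymal markers tested it was the 1 that rose in either comparison.

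TTC6, the neighbour of FOXA1, was 0.86 log2 units higher in the shRNA control than in the vector control (edgeR adjusted p = 4.71e-07), where FOXA1 had -0.05 (edgeR adjusted p = 0.537).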
